A study of Mus musculus with 16 samples.

Results

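Endothelial cells sorted from 67NR mammary tumours were compared between hosts that lack endosialin and wild-type hosts. The comparison took the knockout endothelial arrays minus the wild-type endothelial arrays, as the labels assign them, which is 8 of the 16 arrays of the series, 4 per genotype. The other 8 arrays hold pericytes sorted from the same kind of tumours, 4 per genotype, and serve here to show where the endothelial differences were shared. All hosts were female Ub-GFP BALB/c mice aged 6 to 8 weeks, so the controls carry the transgene as well. The 67NR line, a BALB/c mouse mammary carcinoma line, was placed in mammary fat pad 4, where tumours reached about 10 mm in diameter within 2 to 4 weeks. Both genotypes received the same tumour line, so the genotype is that of the host cells. The sources used here do not state whether endosialin was removed in all host cells, which BALB/c substrain was used, how the sort was gated or how many mice stand behind an array. All p-values therefore measure the spread between these samples, which may be technical in part.

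Endosialin, encoded by Cd248, is a transmembrane glycoprotein with a C-type lectin-like domain, made by pericytes, fibroblasts and other stromal cells. It is a marker of tumour vessels, where it sits on the cells that wrap the endothelial tube. Endothelial cells line the lumen and exchange signals with pericytes through PDGF, angiopoietin, Notch and TGF-beta pathways and through the basement membrane that both deposit. The comparison thus asks whether the vessel lining differs when the surrounding cells lack endosialin.

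RNA from the uncultured sorted cells was amplified, and whole-genome mouse bead arrays each received 1.6 µg of labelled cRNA. Values are the authors' normalized probe intensities on a log2 scale, on which array medians lay between 7.18 and 7.21. A level at or below that range is dim and folds of dim transcripts are understated. Pairs of endothelial arrays correlated across genes at 0.958 to 0.979 within wild type, 0.960 to 0.976 within knockout and 0.951 to 0.981 between genotypes. Wild-type replicate 2 had the lowest of these values, 0.951 to 0.963 against the other endothelial arrays. A principal component analysis of the endothelial arrays alone placed 25.9%, 20.5% and 19.2% of the variance on its first 3 components, and none of them parted the genotypes.

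The endothelial label held against its markers. Of 29 endothelial markers on the array, 26 lay above the array median on all 8 endothelial arrays, and the mean over the list was 8.94 to 9.04 in wild type and 8.90 to 9.06 in knockout, against at most 7.08 in any pericyte array. The adhesion receptor Pecam1 lay between 10.46 and 10.77 on the 8 endothelial arrays and VE-cadherin (Cdh5) between 10.04 and 10.30. Of 13 fibroblast markers 11 were above the median on none of the 8 arrays, with Col1a1 at or below 7.01. The pericyte receptor Pdgfrb at or below 6.86, the leukocyte antigen Ptprc at or below 6.84 and the T cell gene Cd3e at or below 6.84 were also dim. Some markers of pericytes and of other cells were not dim. Rgs5 lay at 7.80 to 9.31 in wild type and 8.14 to 8.73 in knockout, with the potassium channel genes Kcnj8 and Abcc9 also above the median on all 8 arrays. So were the smooth muscle markers Acta2, Smtn and Mylk, the mast cell markers Kit and Hdc, the lymphocyte marker Il2rg and the Schwann cell marker Foxd3. The macrophage markers Aif1, Laptm5 and Lyzs were above it on 5, 4 and 3 of the 8 arrays. The mean over 15 pericyte markers was 7.46 to 7.69 in wild type and 7.49 to 7.61 in knockout, against 8.32 to 9.41 in pericyte arrays. The wild-type means of endothelial cells and pericytes were 8.65 and 8.66 for Kcnj8, 8.48 and 8.75 for Abcc9, and 8.45 and 11.65 for Rgs5. The haemoglobin genes Hbb-b1 and Hba-a1 varied between arrays and are given with the other genes of large spread. In sorted bulk RNA, fewer cells of a type and less RNA per cell cannot be told apart.

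Knockout and wild-type endothelial cells were close across the transcriptome. Of 10426 genes tested, 1 passed (0.00959%), the sterol carrier gene Osbp, and it was higher in the knockout (limma, Benjamini-Hochberg threshold 0.05). Lower in the knockout were 0 genes, while 166 lower (1.59%) and 221 higher genes (2.12%) had an unadjusted p under 0.05. These 387 genes are 3.71% of those tested, and 521.3 would be expected by chance. No gene differed by as much as 1 on the log2 scale, and 27 differed by at least 0.5, of which 18 were higher and 9 lower. The full range ran from -0.80 for the fatty acid oxidation gene Acads to 0.79 for the actin-severing protein gene Cfl1. The 1st and 99th percentiles lay at -0.29 and 0.35, around a median of -0.0023, and 49.0% of differences were positive.

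The arrays bound how large most differences on their scale could be. For 10378 genes (99.5%) the 95% confidence interval of the difference lay within 2-fold in either direction, and for 9836 genes (94.3%) within 1.5-fold. The median SD within a group was 0.13 in wild type and 0.14 in knockout, and the median SE of a difference was 0.11. Each SE, interval and p-value used 1 estimate of a gene's spread over all 16 arrays, so the pericyte spread enters it. For the macrophage marker Laptm5 the SDs were 0.15 and 0.14 in endothelial cells (wild type, knockout). In pericytes they were 1.37 and 1.00, and the SE of its endothelial difference was 0.50. The bounds of 2-fold and 1.5-fold hold on the compressed array scale. Both shares also count genes kept through the pericyte arrays, in which an endothelial difference could hardly show. Among them were 11 of 13 fibroblast and 7 of 10 epithelial and keratinocyte markers, above the median on no endothelial array. In 90 genes (0.863%) all 4 knockout arrays lay above all 4 wild-type arrays, and in 118 (1.13%) they lay below.

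**Figure D1:**
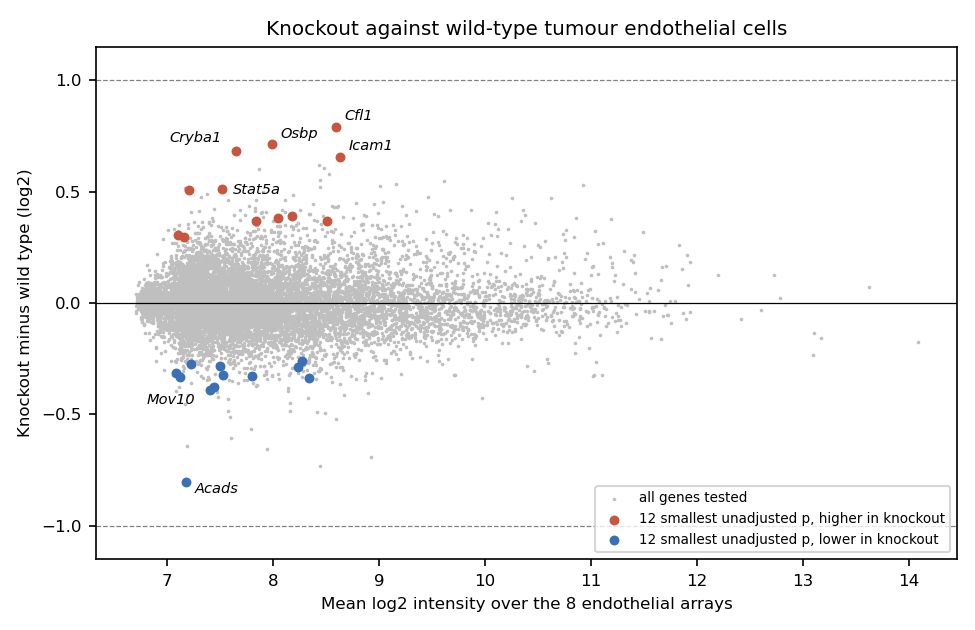
Each point is 1 of the 10426 genes tested, placed by its mean log2 intensity over the 8 endothelial arrays (x axis) and by knockout minus wild type on the log2 scale (y axis). Red and blue points are, for each direction, the 12 genes of smallest unadjusted p, the dashed lines mark a 2-fold difference, and no gene reaches them.

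Cd248 itself lay near the array median in endothelial cells of both genotypes, above it on 4 of the 8 arrays. The wild-type arrays gave 6.96, 6.92, 6.94 and 7.33, the knockout arrays 7.44, 7.36, 7.04 and 7.23. The groups overlapped, with wild-type replicate 4 apart from the other 3 wild-type arrays. The difference was 0.23 (SE 0.12, limma, adjusted p = 1.00), and the other probe, at 6.81 in wild type and 6.76 in knockout, gave -0.05. The loss of the transcript can be checked in the pericytes, where the same probe fell from 10.98 to 7.09.

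Osbp encodes oxysterol-binding protein, which exchanges cholesterol for phosphatidylinositol 4-phosphate at contacts between the endoplasmic reticulum and the Golgi. Its kept probe, ILMN_1252431, read 7.70, 7.48, 7.70 and 7.65 in wild type and 8.39, 8.29, 8.28 and 8.41 in knockout. The lowest knockout array stood above the highest wild-type array by more than the whole range within either group. Osbp rose from 7.63 ± 0.11 to 8.34 ± 0.07 (SD, n = 4 each), a log2 difference of 0.71 with a 95% confidence interval of 0.53 to 0.90 (limma, adjusted p = 0.0019). It rose in pericytes too, by 0.56 (SE 0.09, limma, adjusted p = 0.00824), and the 2 effects differed by 0.15 (SE 0.12, limma, adjusted p = 1.00). The gene's other probe, ILMN_2775438, was too dim to be kept. It differed by -0.13, from 7.01 ± 0.05 in wild type to 6.88 ± 0.03 in the knockout arrays (SD, n = 4 each), so the probes of Osbp disagree and the rise rests on 1 of them.

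Other genes of sterol exchange gave no call. Among 16 tested oxysterol-binding proteins and their contact-site partners, Osbp was the 1 that passed, 6 differences were positive and 10 negative, and the median was -0.03 against -0.0023 over all genes. The relative Osbpl5 stood at 0.27, the phosphatidylinositol 4-kinase Pi4ka, which makes the lipid that is exchanged, at -0.18 (0.01 at its other probe), and the membrane anchor Vapb at -0.10. Of 16 tested genes of sterol synthesis and SREBP control 0 passed, with 12 positive and 4 negative differences and a median of 0.05, and 4 lay above the median on no endothelial array. In that list the squalene epoxidase Sqle stood at 0.10. The same list had a median of 0.21 in pericytes, with 15 of 16 differences positive, against 47.8% of all genes.

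Osbp lies on chromosome 19, as Cd248 does. Ordered along that chromosome by the RefSeq table of GRCm38.p6, Cd248 was number 33 of 275 tested genes, Cfl1 number 45, the histone acetyltransferase Kat5 number 46 and Osbp number 120. Of the 12 higher genes with the smallest unadjusted p, 3 (Osbp, Kat5 and Cfl1) were on chromosome 19, and of the 12 lower genes 1 (the arsenic methyltransferase As3mt, number 240). Chromosome 11, with 739 tested genes against 286 on chromosome 19, held the higher genes Cryba1, Stat5a and Mrpl12. It also held the lower genes Cdc42se2, Arl16, Ube2g1 and Myl4. The pericyte groups of Osbp, Kat5 and Cfl1 did not overlap either, while those of Cryba1, Stat5a and Mrpl12 did. On chromosome 19 as a whole 18 of 286 tested genes had an unadjusted p under 0.05 (6.29%, limma), against 3.71% of all genes. That share was 5.71% on chromosome 6 and 5.14% on chromosome 11. Among the 50 tested genes nearest to Cd248, 25 on each side, the share was 6%, with 25 positive and 25 negative differences and a median of -0.0026. The part of chromosome position in the Osbp result was not tested.

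Other genes stood apart by unadjusted p without passing. Acads encodes short-chain acyl-CoA dehydrogenase, the mitochondrial enzyme that opens the oxidation of short fatty acids. Levels were 7.67, 7.04, 8.14 and 7.46 in wild-type and 6.72, 6.75, 6.84 and 6.80 in knockout endothelial cells. The groups did not overlap. All 4 knockout values lay below the lower quartile of their arrays, so the knockout level is near the floor of the scale, while the wild-type arrays spread over more than 1 log2 unit. The difference was -0.80 (SE 0.17, limma, adjusted p = 0.560). In pericytes wild type read 7.58, 7.13, 7.47 and 7.72 and knockout 6.82, 6.76, 7.01 and 6.82, again without overlap, a difference of -0.63 (SE 0.17, limma, adjusted p = 0.203). Wild-type replicate 2 was the lowest wild-type array in both cell types. Without wild-type endothelial replicate 2 the endothelial difference was -0.98 and passed (limma, adjusted p = 0.0225), and with array weights it was -0.93 and passed (limma, adjusted p = 0.0366). Without wild-type endothelial replicate 3 it was -0.61, without replicate 1 it was -0.77, and neither passed. With the 8 endothelial arrays alone it did not pass either (limma, adjusted p = 0.997).

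Cryba1, a lens crystallin gene, read 7.25, 7.13, 7.27 and 7.57 in wild type and 7.75, 8.31, 7.84 and 8.04 in knockout endothelial cells. Its groups did not overlap, and both of its kept probes were higher, by 0.68 (SE 0.14, limma, adjusted p = 0.560) and 0.54. In pericytes it differed by 0.14, with groups that overlapped. Stat5a, a transducer of cytokine and growth hormone signals, read 7.24, 7.26, 7.25 and 7.32 in wild type and 7.74, 7.95, 7.71 and 7.72 in knockout. The groups lay apart by 0.51 (SE 0.12, limma, adjusted p = 0.819), but the gene's other kept probe, at 7.03 in wild type and 7.06 in knockout, gave 0.04. In pericytes Stat5a differed by 0.37 (SE 0.12, limma, adjusted p = 0.408), with groups that overlapped. Its effects in the 2 cell types differed by 0.15 (SE 0.17). Among 15 tested JAK and STAT genes the related Stat5b differed by -0.04, and the list had 7 positive and 8 negative differences.

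Icam1, the endothelial receptor for leukocyte integrins, read 8.08, 8.19, 8.29 and 8.67 in wild type and 8.30, 9.04, 9.33 and 9.18 in knockout. Knockout replicate 1 lay inside the wild-type range and the other 3 knockout arrays above it. The difference was 0.66 (SE 0.18, limma, adjusted p = 1.00). Cfl1 had the same shape, with 8.35, 7.98, 8.22 and 8.24 in wild type and 8.22, 9.58, 8.89 and 9.27 in knockout, a difference of 0.79 (SE 0.23, limma, adjusted p = 1.00). Its pericyte difference was also 0.79, with wild type at 7.82, 7.69, 7.53 and 7.60 and knockout at 7.98, 9.07, 8.40 and 8.36. Knockout replicate 1 was the lowest knockout array for Cfl1 in both cell types.

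Kat5 read 7.08, 6.90, 7.05 and 7.03 in wild type and 7.25, 7.37, 7.39 and 7.24 in knockout, a difference of 0.30 without overlap (limma, adjusted p = 1.00). Its wild-type level was dim and its knockout level just above the array medians. The pericyte groups did not overlap either, with a difference of 0.35. The 6 remaining named genes with positive differences were Gt(ROSA)26asSor, which RefSeq now names Thumpd3 (the probe deposited under that name gave 0.20), at 0.51, the mitochondrial ribosomal protein Mrpl12 at 0.38, the RNA polymerase I subunit Cd3eap at 0.39, the adaptor Shf at 0.37, the small nucleolar RNA host Gas5 at 0.37 and Pdk4, a kinase that turns off pyruvate dehydrogenase, at 0.31. The adjusted p was 0.819 for Gt(ROSA)26asSor and 1.00 for the other 5 (limma).

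Mov10, an RNA helicase with a part in antiviral defence and retroelement silencing, read 7.65, 7.44, 7.79 and 7.53 in wild type and 7.18, 7.29, 7.13 and 7.24 in knockout. The groups did not overlap, and its 2 kept probes gave -0.39 (SE 0.11, limma, adjusted p = 1.00) and -0.38. In pericytes the difference was -0.38, and knockout replicate 1 at 7.42 lay just above the lowest wild-type array at 7.39. Mfap1b, a splicing factor gene, read 7.81, 7.45, 7.71 and 7.54 in wild type and 7.27, 7.08, 7.33 and 7.32 in knockout. It differed by -0.38 in endothelial cells and -0.33 in pericytes, without overlap in either.

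The other 9 named genes with negative differences ranged from -0.26 to -0.34, all with an adjusted p of 1.00 (limma). They were the CDC42 effector Cdc42se2 (-0.32), Mansc1 (-0.26), the lipid kinase of autophagy Pik3c3 (-0.28), As3mt (-0.33), the small GTPase Arl16 (-0.31), the RNA uridylyltransferase Zcchc11 (-0.27), the ubiquitin-conjugating enzyme Ube2g1 (-0.29), the myosin light chain Myl4 (-0.33) and the Elongator subunit Elp2 (-0.34). The second probes of Cdc42se2, As3mt and Mansc1 gave -0.11, -0.25 and -0.22, and those of Ube2g1 gave -0.13 and -0.05. All these names were picked by small p in this comparison, so their differences are a description.

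**Figure D2:**
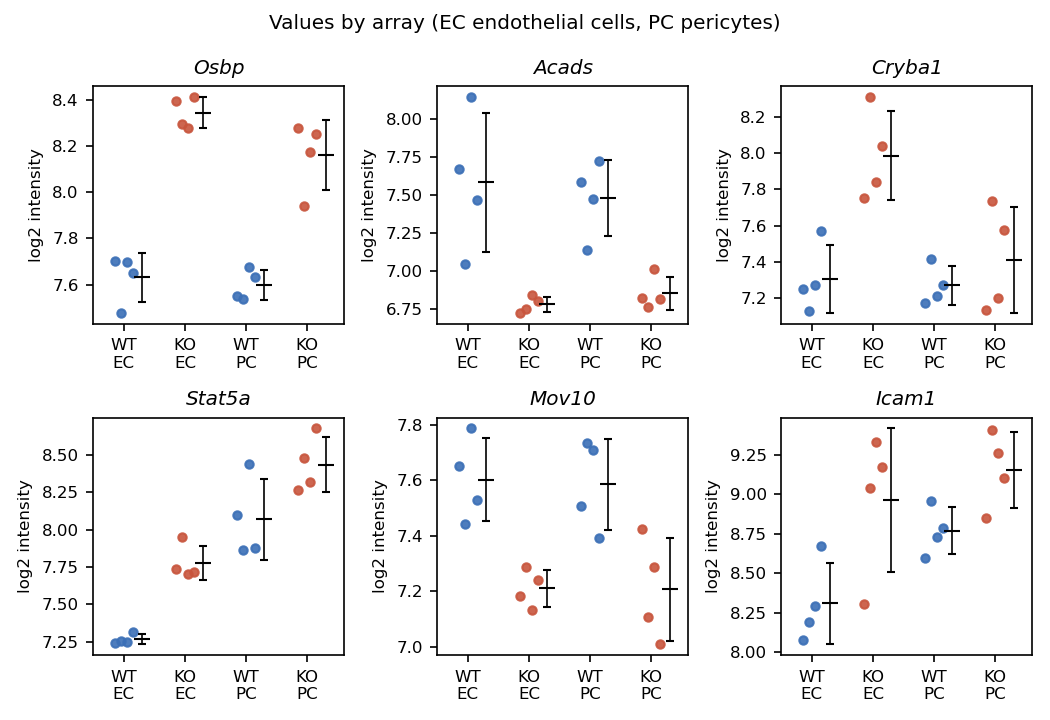
Log2 intensity (y axis) of 6 genes in every array, with wild type in blue and knockout in red for endothelial cells (EC) and pericytes (PC), and bars for the mean and SD of 4 arrays. Osbp is parted by genotype in both cell types, as is Acads, while Cryba1 and Stat5a are parted in endothelial cells and overlap in pericytes. The pericyte difference was 0.14 for Cryba1 and 0.37 for Stat5a.

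Pericyte arrays share no sample with the endothelial comparison and so show the same genes in other libraries. Of the 12 named genes with positive endothelial differences, 11 had a positive pericyte difference and 3 (Osbp, Kat5 and Cfl1) had pericyte groups without overlap, where 1.38% of all genes lay wholly higher in the knockout. Of the 12 named genes with negative differences, 9 were negative in pericytes and 2 (Acads and Mfap1b) did not overlap, where 1.63% of all genes lay wholly lower. Across all genes, 4 were wholly higher in the knockout in both cell types, which is 4.44% of the 90 endothelial and 2.78% of the 144 pericyte genes. They were Osbp, Kat5 and the unnamed 2210023G05Rik and Gtar-pending. Another 4 were wholly lower in both, Acads, Mfap1b, LOC231069 and Sesn3, which encodes a stress-induced sestrin, 3.39% of the 118 endothelial and 2.35% of the 170 pericyte genes. Sesn3 and the unnamed transcripts were picked after their values were seen. Whether mice or tumours were shared between the cell types of a genotype is not given, so the libraries may not be independent. Endothelial and pericyte arrays with the same number deviated from their group means with a positive correlation in all 8 cases, from 0.032 to 0.43.

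The difference of the effects was tested over all genes, and 2 passed (0.0192%), with 390 at an unadjusted p under 0.05 (limma). This count was 53 without knockout pericyte replicate 1, 1 or 2 without any other array, and 10 with array weights. For Cd248 the effect was 0.23 in endothelial cells and -3.89 in pericytes, a difference of 4.12 (SE 0.17, limma, adjusted p = 6.11e-11). Cd248 is the gene knocked out and read 7.04 in wild-type endothelial cells against 10.98 in wild-type pericytes, so this difference followed from the design. LOC100042514, an unnamed transcript, read 6.80 to 6.93 on the 8 endothelial arrays, and its effect was -0.02 there against 1.36 in pericytes, a difference of -1.38 (limma, adjusted p = 0.025). It lay below the median of every endothelial array and was kept through the pericyte arrays. Of the named genes, the effects of Cryba1 lay apart by 0.54 (SE 0.20) and those of Elp2 by -0.43 (SE 0.16), and neither passed (limma, adjusted p = 1.00).

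**Figure D3:**
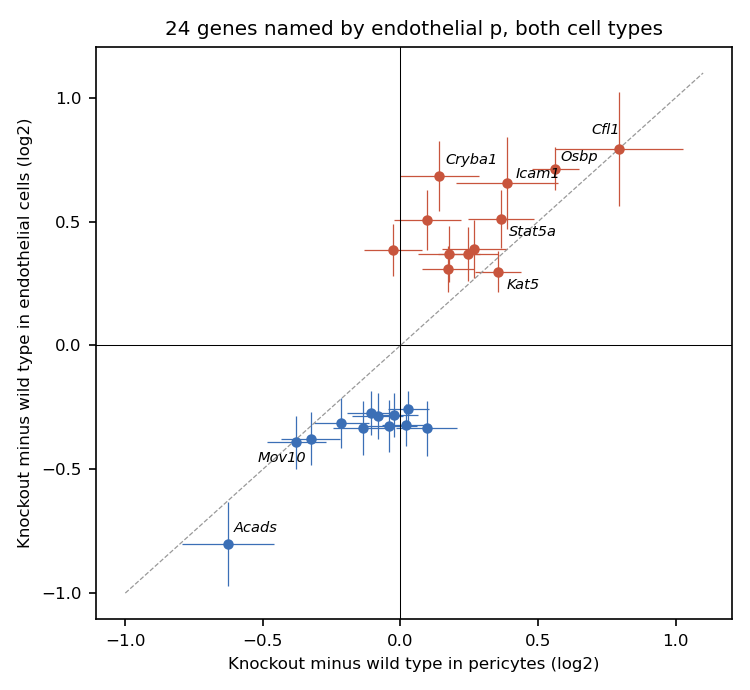
Knockout minus wild type on the log2 scale in pericytes (x axis) and endothelial cells (y axis) for the 24 genes named by their endothelial p, with bars of 1 SE and a dashed line where both are equal. Osbp, Cfl1, Kat5, Mov10 and Acads lie near the line, and Cryba1 lies off it, at 0.14 in pericytes and 0.68 in endothelial cells.

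Genes that define endothelium differed little. Of 26 tested identity markers 0 passed, 6 differences were positive and 20 negative, and the median was -0.02, with values from -0.16 for the adrenomedullin receptor partner Ramp2 to 0.19 for the VEGF receptor Kdr. The other kept probe of Kdr gave -0.07, and leaving out 1 array took the printed probe from 0.0099 to 0.38. All 26 intervals lay within 2-fold. Pecam1 differed by -0.02 (95% interval -0.24 to 0.20), Cdh5 by -0.10 (-0.25 to 0.06) and the angiopoietin receptor Tek by -0.04 (-0.30 to 0.22).

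Angiogenic signalling gave no call. Among 9 tested VEGF ligands and receptors 0 passed, with a median of 0.03. The lymphatic receptor Flt4 read 8.45, 8.52, 8.49 and 8.33 in wild type and 8.32, 8.21, 8.25 and 8.24 in knockout, a difference of -0.19 without overlap (limma, adjusted p = 1.00), and its other kept probe gave -0.04. The co-receptor Nrp1 stood at -0.02, while Vegfa lay above the median on no endothelial array. Of 6 angiopoietin and Tie genes 0 passed, with Angpt2, the ligand that loosens vessels, at 0.08 and its other probe at -0.10. Among 13 Notch and arterial genes 0 passed, 8 were positive and 5 negative, with a median of 0.04. The Notch ligand Dll4, which restrains tip cells, read 7.74, 8.05, 7.89 and 8.49 in wild type and 8.12, 8.35, 8.75 and 8.63 in knockout. The groups overlapped, the difference was 0.42 (SE 0.14, limma, adjusted p = 1.00), and its other probe gave 0.20. The Notch target genes Hey1 and Hes1 stood at 0.13 and 0.18 and Nrarp at -0.04. The 14 tip cell genes had a median of -0.01 and the 6 venous genes 0.06, with 0 passing in either, Esm1 at -0.06 and the vein-defining Nr2f2 at 0.07, with -0.26 and -0.05 at its other kept probes.

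Contacts between cells and with the matrix gave no call. Of 14 junction genes 0 passed, with a median of -0.02, the claudin Cldn5 at -0.10 and the gap junction genes Gja4 at 0.23 and Gja5 at -0.18. Of 8 PDGF and pericyte recruitment genes 0 passed, with a median of 0.03 and the recruiting ligand Pdgfb at -0.01. The 12 genes of shear response and nitric oxide had a median of -0.03, with Nos3, the endothelial nitric oxide synthase, at -0.09 and the flow-induced Klf4 at 0.22. Of 21 genes of TGF-beta and BMP signalling 0 passed, with a median of -0.01 and the BMP target Id1 at 0.36. Of 14 basement membrane genes 0 passed, with a median of 0.01. The endothelial laminin chain Lama4 read 7.31, 7.33, 7.49 and 7.87 in wild type and 8.14, 7.67, 8.11 and 7.57 in knockout, a difference of 0.37 with overlap (limma, adjusted p = 1.00), and the shared chain Lamc1 stood at -0.18, with -0.06 at its other probe. Of 8 endosialin ligands and lectin relatives 0 passed, with 4 positive and 4 negative differences. The ligands fibronectin (Fn1), Mmrn2 and the collagen IV chain Col4a1 stood at -0.29, 0.03 and 0.01, and the lectin relatives Cd93 and thrombomodulin (Thbd) at -0.07 and -0.21.

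**Figure D4:**
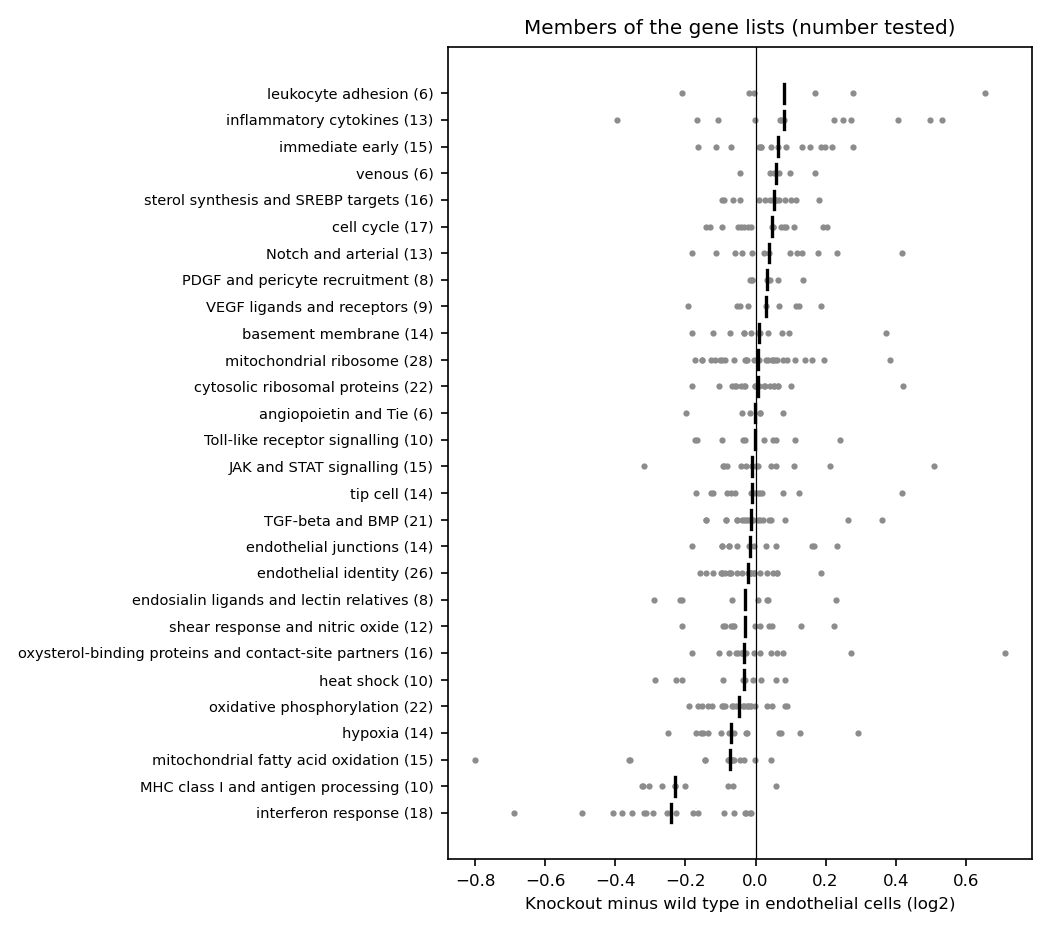
Knockout minus wild type in endothelial cells on the log2 scale (x axis) for each tested member (grey points) of the lists named at the left, with the number tested in brackets and a bar at the list's median. Most medians lie within 0.1 of 0, and those of the interferon response and of MHC class I lie at -0.24 and -0.23.

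Among the pathway lists with at least 5 tested members, the interferon response had the median farthest from 0. Of 18 tested members 0 passed and 1 had an unadjusted p under 0.05, yet all 18 differences were negative, from -0.01 to -0.69, with a median of -0.24 against -0.0023 over all genes. The mean over the 18 members was 8.70, 8.27, 8.24 and 8.35 in wild type and 8.26, 8.11, 8.25 and 8.00 in knockout. Wild-type replicate 1 stood above all other arrays and the remaining groups overlapped. Without wild-type replicate 1 the median was -0.16, without knockout replicate 4 it was -0.15, and without any other endothelial array it lay between -0.22 and -0.27. In pericytes the median was -0.12, with 16 of 18 negative, against a median of -0.0064 over all genes. Members of 1 pathway vary together, so this count is not a count of independent genes, and the direction was known from earlier results of these data.

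Ifit2, an interferon-induced inhibitor of translation, read 8.68, 8.96, 8.27 and 9.06 in wild type and 7.90, 7.77, 8.57 and 8.74 in knockout. Its groups overlapped, with a difference of -0.50 (SE 0.21, limma, adjusted p = 1.00) and -0.41 at its other probe. Of 10 genes of MHC class I and antigen processing 0 passed, 9 were negative and the median was -0.23, which was -0.12 without wild-type replicate 1 and -0.10 without knockout replicate 4. The immunoproteasome subunit Psmb8 and the class I heavy chain H2-K1 each stood at -0.32. The MHC class II genes Cd74 and H2-Ab1 stood at -0.60 and -0.42, with overlap.

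Leukocyte markers are given beside these values because macrophages express many of the same genes. Of 10 macrophage and granulocyte markers on the array 0 were above the array median on all 8 endothelial arrays, and their mean was 6.87 to 7.07 in wild type and 6.84 to 6.96 in knockout. Ptprc was at most 6.84. The 5 tested markers had a median of -0.27, with the lysozyme gene Lyzs at -0.32 (limma, adjusted p = 1.00). Wild-type replicate 1, which had the highest interferon mean, had the lowest macrophage mean of the wild-type arrays. It also had the highest mean of the MHC class II genes Cd74 and H2-Ab1, 8.78 against 7.13 to 7.73 in other wild-type arrays. The part of leukocytes in the interferon values was not tested.

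The inflammatory cytokine list went the other way, with 9 positive and 4 negative differences, a median of 0.08 and 0 of 13 passing. The NF-kappaB feedback gene Tnfaip3 stood at 0.41 and the neutrophil chemokines Cxcl1 and Cxcl2 at 0.53 and 0.50, while the monocyte chemokine Ccl7 stood at -0.39, with -0.07 at its other kept probe and a level above the median on 3 of the 8 arrays (limma, adjusted p = 1.00 for each). In this list 3 of the 13 members lay above the median on no endothelial array. Among 6 leukocyte adhesion genes 0 passed, with E-selectin (Sele) at 0.28, P-selectin (Selp) at 0.17 and Vcam1 at -0.21 beside Icam1 at 0.66. Of 10 Toll-like receptor signalling genes 0 passed, with a median of -0.0026.

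Mitochondrial fatty acid oxidation genes were negative in 14 of 15 tested members with 0 passing, and their median was -0.07. Acads was the farthest. The carnitine palmitoyltransferase Cpt2 read 7.89, 8.21, 7.81 and 8.05 in wild type and 7.97, 7.44, 7.51 and 7.61 in knockout. It overlapped through knockout replicate 1, and its 2 kept probes gave -0.36 and -0.34 (limma, adjusted p = 1.00). The enoyl-CoA hydratase Echs1 stood at -0.36, with wild-type replicate 2 at 8.38 and the other wild-type arrays at 7.63 to 7.70. The remaining members, such as Acadm at -0.14, Acadl at -0.07 and Acadvl at -0.06, which open medium, long and very long chains, differed by 0.15 or less. In pericytes 9 of the 15 were negative, with a median of -0.04. Of 22 oxidative phosphorylation genes 18 were negative with 0 passing and a median of -0.05, and in pericytes 10 were negative. The 28 mitochondrial ribosome genes had a median of 0.01, in which Mrpl12 at 0.38 was the farthest, and the 22 cytosolic ribosomal protein genes also had 0.01.

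Growth and stress genes showed no call. Of 17 cell cycle genes 0 passed, with a median of 0.05 and the mitotic kinase Aurka at 0.19. Of 14 hypoxia genes 0 passed, with a median of -0.07, Ddit4 at 0.29 and Egln3 at -0.25. The 15 immediate early genes had a median of 0.07, with 12 positive, Egr1 at 0.19 and Fos at -0.16, and the 10 heat shock genes had -0.03. Many markers of other cells lay above the array median on no endothelial array and were kept through the pericyte arrays, so a difference between the endothelial groups could hardly show in them. This applied to 11 of 13 tested fibroblast, 7 of 10 epithelial and keratinocyte, 7 of 15 pericyte, 4 of 7 mast cell, 2 of 5 macrophage and granulocyte, 2 of 6 smooth muscle, 1 of 3 lymphocyte and 1 of 2 Schwann cell markers.

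The genes of largest spread were picked by their SD within the endothelial groups, so their wide range within each genotype follows from that choice. Ubd, an interferon- and TNF-induced ubiquitin-like modifier, read 10.26, 8.39, 8.57 and 8.00 in wild type and 9.58, 8.17, 7.68 and 6.87 in knockout. Replicate 1 was the highest array of each genotype. Cxcl9, a chemokine induced by interferon gamma, read 10.38, 8.88, 9.12 and 8.68 in wild type and 9.29, 8.94, 8.57 and 7.50 in knockout. Gbp5, an interferon-induced GTPase, read 9.98, 8.11, 9.05 and 9.02, and 9.61, 8.44, 8.87 and 7.85. The differences of -0.73, -0.69 and -0.35 did not pass (limma, adjusted p = 1.00 for each), and for these 3 genes replicate 1 was the highest array in all 4 groups, pericytes included.

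The neutrophil chemokines had the opposite order. Cxcl1 read 9.59, 10.61, 10.82 and 11.62 in wild type and 10.09, 11.53, 11.67 and 11.49 in knockout, and Cxcl2 7.03, 7.46, 7.50 and 8.64, and 7.24, 8.76, 8.66 and 7.96. Replicate 1 was the lowest array in all 4 groups for both, and for the homeobox gene Rhox5. The monocyte chemokine Ccl2 read 7.51, 8.31, 7.94 and 9.28 in wild type and 7.53, 8.62, 9.06 and 8.83 in knockout, lowest in replicate 1 of both endothelial groups. The labels do not say what arrays with the same number share. Both orders were looked up only in genes of large spread, and the share of all genes that follow them was not counted. The unnamed 3010031K01Rik was also among the 10 genes of largest spread.

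Haemoglobin transcripts followed neither order. Hbb-b1 read 8.33, 9.20, 8.25 and 8.87 in wild type and 9.47, 7.35, 7.48 and 8.38 in knockout, and Hba-a1 8.07, 8.68, 7.72 and 8.63, and 8.88, 6.85, 6.99 and 7.76. Knockout replicate 1 was the highest of the 8 arrays and knockout replicates 2 and 3 the lowest. RefSeq places the Hbb-b1 probe on its near copy Hbb-bt, so the beta-globin copies may not be told apart. The differences of -0.49 and -0.66 did not pass (limma, adjusted p = 1.00 for each). The mean over 4 erythroid markers on the array was 7.43 to 7.99 in wild type and 6.98 to 8.26 in knockout, against at most 7.01 in pericytes.

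**Figure D5:**
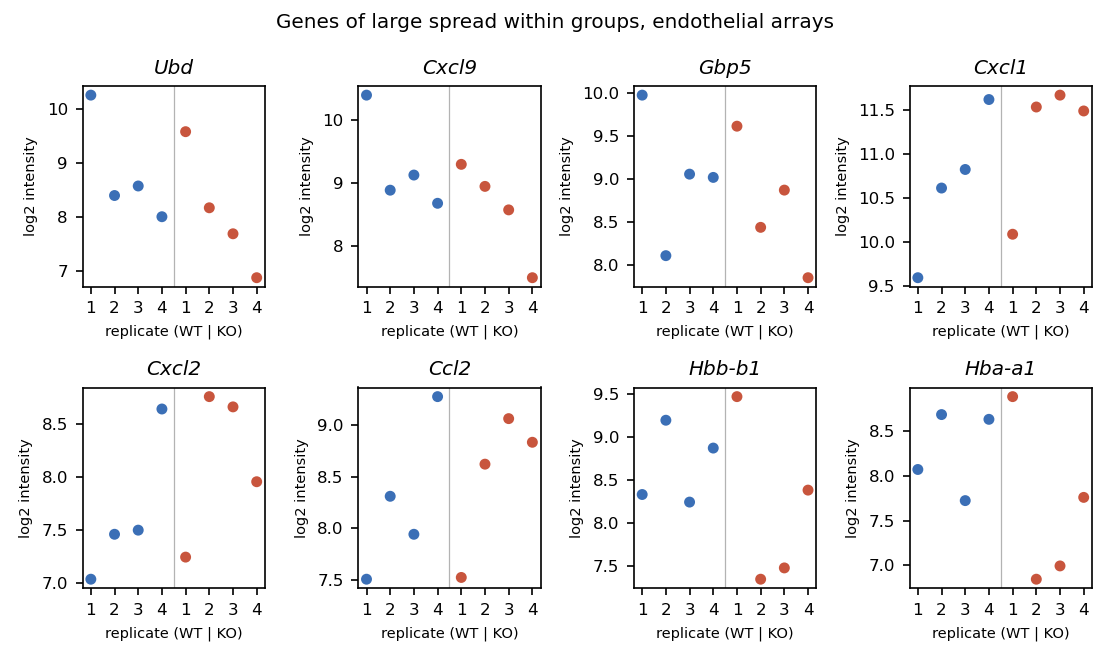
Log2 intensity (y axis) of 8 genes with large spread on the endothelial arrays, by replicate number (x axis), with wild type in blue at the left of each panel and knockout in red at the right. Ubd, Cxcl9 and Gbp5 are highest and Cxcl1, Cxcl2 and Ccl2 lowest in replicate 1 of both genotypes, while the haemoglobin genes are highest in knockout replicate 1.

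The promoters of Ubd, Cxcl9, Gbp5, Cxcl1 and Cxcl2 are shown. These genes of large spread were picked for their known links to interferon or NF-kappaB. Replicate 1 was the highest array in all 4 groups for the first 3 and the lowest for Cxcl1 and Cxcl2. Each line gives, 5′ to 3′ on the coding strand, the 250 bases before the gene's start on GRCm38.p6. Ubd lies at chr17:37193642-37193891 (+), Cxcl9 at chr5:92328080-92328329 (-), Gbp5 at chr3:142496684-142496933 (+), Cxcl1 at chr5:90890995-90891244 (+) and Cxcl2 at chr5:90903649-90903898 (+). Capitals mark every match of a kappaB pattern or a gamma-activated site pattern.
Ubd: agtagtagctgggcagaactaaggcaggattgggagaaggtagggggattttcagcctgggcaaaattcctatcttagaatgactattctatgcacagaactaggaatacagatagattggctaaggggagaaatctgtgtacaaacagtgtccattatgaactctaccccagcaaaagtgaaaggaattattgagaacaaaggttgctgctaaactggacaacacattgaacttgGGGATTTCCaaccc
Cxcl9: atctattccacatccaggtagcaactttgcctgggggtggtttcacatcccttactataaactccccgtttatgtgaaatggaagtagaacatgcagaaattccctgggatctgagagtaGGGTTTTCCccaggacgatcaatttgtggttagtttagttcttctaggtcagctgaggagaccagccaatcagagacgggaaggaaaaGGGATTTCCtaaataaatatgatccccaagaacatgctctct
Gbp5: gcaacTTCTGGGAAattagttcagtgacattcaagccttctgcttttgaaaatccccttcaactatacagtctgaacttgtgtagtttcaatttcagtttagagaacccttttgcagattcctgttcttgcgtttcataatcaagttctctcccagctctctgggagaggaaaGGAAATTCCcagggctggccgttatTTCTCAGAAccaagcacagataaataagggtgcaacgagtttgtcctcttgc
Cxcl1: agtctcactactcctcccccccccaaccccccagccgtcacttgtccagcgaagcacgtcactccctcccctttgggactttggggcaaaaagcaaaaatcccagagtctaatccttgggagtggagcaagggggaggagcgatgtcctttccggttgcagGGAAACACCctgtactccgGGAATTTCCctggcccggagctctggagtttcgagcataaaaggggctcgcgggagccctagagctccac
Cxcl2: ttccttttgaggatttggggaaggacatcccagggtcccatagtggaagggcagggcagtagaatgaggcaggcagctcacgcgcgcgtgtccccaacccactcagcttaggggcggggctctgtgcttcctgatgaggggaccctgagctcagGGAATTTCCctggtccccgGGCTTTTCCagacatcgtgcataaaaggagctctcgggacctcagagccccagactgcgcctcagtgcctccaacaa
The kappaB pattern searched, a core of the letters bound by NF-kappaB, was GGNNTTTCC on either strand. It was found in all 5 windows, so it does not part the genes by direction. There was 1 match in Ubd, at -14 from the start, 2 in Cxcl9, at -130 and -42, 1 in Gbp5, at -77, 2 in Cxcl1, at -89 and -70, and 2 in Cxcl2, at -96 and -77. It occurs in 1619 of 32851 such windows of the table (4.93%). Because the 5 genes were picked for links of this kind, their matches beside this share are no test of enrichment. The gamma-activated site pattern, which STAT dimers bind, was TTCNNNGAA. It was found 2 times in Gbp5, at -245 and -52, and 0 times in Ubd, Cxcl9, Cxcl1 and Cxcl2, and it occurs in 2306 windows (7.02%). No marked matches overlap. A match is a string of letters and shows no binding.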

How the data were processed

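Deposited values were log2 intensities of Illumina MouseWG-6 v2.0 bead arrays, normalized by the authors. The submitters' processing notes name GenomeStudio and lumi, and the sources used here do not state versions, the transform, the background correction or detection calls. The repository's value table differed by at most 5.00e-09, and 0 columns belonged to samples outside the series.

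A probe was kept when above its array's median on at least 4 of 16 arrays (14632 of 24040 probes). Of several kept probes (2904 genes), the one with the highest mean stood for the gene, giving 10426 genes of 16537 symbols. A group-means model over all 16 arrays, grouped by the labels, was fitted with limma 3.58.1 in R 4.3.3 (two-sided moderated tests, 12 residual and 5.58 prior degrees of freedom, Benjamini-Hochberg over 10426 genes, threshold 0.05). Intervals are 95% confidence intervals. The scripts were tested on simulated data. The number of arrays limits the precision.

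The comparison, the gene lists and the rule for named genes were chosen with earlier results of these data known. The rule took Cd248, every gene that passed and the 12 genes of smallest unadjusted p in each direction (clone names left out). It added a few members of smallest unadjusted p from each pathway list and from the endothelial identity, lymphatic and macrophage marker lists. It also took the 10 genes of largest spread and 8 sort genes. Other members were named after their values were seen. Some genes that the rule took are not reported here. Chromosomes come from RefSeq (GRCm38.p6), matched by accession (7554 genes), symbol (491) or synonym (661), with 1720 unmatched. The files name no build.

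Same-numbered endothelial arrays of the genotypes had correlations of their deviations of 0.15, 0.10, -0.17 and -0.18, and between endothelial cells and pericytes they were 0.43, 0.12, 0.090 and 0.035 in wild type and 0.22, 0.19, 0.17 and 0.032 in knockout. Not every value exceeded 0.1, so the numbers were not taken as pairs. Alternatives covered the filter, the probe rule, scaling, variance prior, array weights, a size threshold, a replicate block and each array left out.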

Additional observations from a re-analysis of the deposited data

Results flagged for a closer look

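The knockout effect differed between the cell types for Cd248, by 4.12 (endothelial minus pericyte, limma, adjusted p = 6.11e-11), and for LOC100042514, by -1.38 (limma, adjusted p = 0.025). Cd248 is the gene knocked out and read 7.04 in wild-type endothelial cells against 10.98 in wild-type pericytes, so its result followed from the design. LOC100042514 lay below the array median on every endothelial array.

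Of 218 pairs of a named gene and an endothelial group examined, 13 held an array whose gap to the nearest of the other 3 exceeded Dixon's 95% limit as a share of the group's range, and chance gives about 1 in 20. In wild type, Cd248 read 7.33 in replicate 4 (others 6.92 to 6.96), Kdr 7.31 in replicate 1 (7.76 to 7.81) and Ndufa1, a complex I subunit, 9.34 in replicate 4 (9.60 to 9.63). Wild-type replicate 2 held another 4, with Arl16 at 7.38 (7.17 to 7.20), Tek at 8.42 (8.82 to 8.86), Nid2 at 10.48 (10.19 to 10.24) and Echs1 at 8.38 (7.63 to 7.70). In knockout, Stat5a read 7.95 in replicate 2 (7.71 to 7.74), As3mt 7.54 in replicate 4 (7.67 to 7.68) and Gja5 7.68 in replicate 3 (8.12 to 8.15). Knockout replicate 1 held Vcam1 at 7.38 (7.02 to 7.05), Thbd at 8.77 (8.43 to 8.46) and Cxcl1 at 10.09 (11.49 to 11.67). The causes were not tested.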

How the results depend on the processing

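Osbp was the 1 gene that passed in endothelial cells with no filter, a stricter filter, the mean of a gene's probes, a replicate block, a trended and robust prior, median centring, quantile scaling, the repository's table, the 8 endothelial arrays alone and a filter on those arrays. The count was 2 with every kept probe tested, where a probe of Pgm5 joined at -0.56 (limma, adjusted p = 0.0184, the gene's usual probe at -0.15), and 2 with array weights, where Acads joined. A size threshold of log2 1 gave 0. Leaving out 1 array gave 1 to 2, the latter without wild-type endothelial replicate 2. For the difference of effects the count of 2 became 1 with no filter, 0 with the stricter filter, which removes Cd248, and 10 with array weights. Leaving out 1 array gave 1 to 53, the latter without knockout pericyte replicate 1. The replicate block gave 1 and 2 genes, and 2 of 4 wild-type endothelial arrays matched their own number best. With the mean of a gene's probes Angpt2 turned to -0.011 and Nr2f2 to -0.082, and with array weights Rhox5 turned to 0.029. Leaving out 1 array turned the sign of 7 genes that lie near 0 or vary widely, which then ranged from -0.1575 to 0.2434 for Angpt2, from -0.1416 to 0.0590 for Tek, from -0.1498 to 0.0004 for Nos3, from -0.0109 to 0.1863 for Cyp51, from -0.5911 to 0.1012 for Rhox5, from -0.0850 to 0.0342 for Pecam1 and from -0.0546 to 0.0749 for Krt5. The causes were not tested. Median centring and quantile scaling put the median of all genes at -0.0079 and -0.0017. Dim levels and the number of arrays limit what could be called.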
